A study of Mus musculus with 4 samples.

Results

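The cells described here are 252 barcodes of mouse liver droplet libraries with at least 3 unique molecular identifiers (UMIs, one for each captured RNA molecule) of Prtn3, Mpo, Elane and Ctsg together, out of 24561 barcodes that passed the quality limits. A passing barcode had at least 200 detected genes and at most 20% mitochondrial UMIs. Cells with more than 9 UMIs of the later granule genes Camp, Ngp and Ltf, more than 1 of the lymphocyte genes Cd3d, Cd3e, Cd79a and Ms4a1, or more than 1 of the endothelial genes Ptprb, Kdr and Egfl7 were left out. The choice rests on measured values, so the levels of these genes describe the selection and carry no test. The working name was myeloid progenitors. The data bear that name out only in part: 188 of the 252 cells had 3 to 9 UMIs of the 4 genes, and in 155 of those 188 every one of these UMIs was Prtn3.

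Wild-type C57B6 mice aged 18 to 20 weeks, 4 in all, gave 1 library each of hepatic nonparenchymal cells, the liver cells other than hepatocytes. The control mouse received saline. The other mice received thioacetamide (TAA), a hepatotoxin that scars the liver, by intraperitoneal injection for 12 weeks. One of them had TAA alone, and from week 5 of the injections the others also had celecoxib, an inhibitor of cyclooxygenase 2, by gavage at 7.5 mg/kg (TAA+C7.5) or 30 mg/kg (TAA+C30). With 1 mouse a group, a difference is one between libraries. The intervals below are 95% intervals for counting error alone, and no p-value is given. UMI totals per library ran from 17888247 in TAA+C7.5 to 48419305 in TAA, and median UMIs per passing barcode from 1994 to 4632.5 in the same libraries. Pairs of libraries shared 9 to 14 barcode sequences, and no selected cell had one of them.

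Neutrophils and monocytes arise in the bone marrow from shared progenitors. At the promyelocyte stage these cells make the enzymes of the primary (azurophil) granule: Prtn3 encodes proteinase 3, Elane neutrophil elastase and Ctsg cathepsin G, which are serine proteases, and Mpo encodes myeloperoxidase, which makes hypochlorous acid. Transcription of these genes falls as the cells mature and Camp, Ngp and Ltf, genes of the next granules, come on, so transcripts of primary granule enzymes mark immature cells and are usually found in marrow more than in liver.

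The start regions of the 4 enzyme genes and of Ms4a3, a membrane protein gene of granulocyte and monocyte progenitors whose level followed theirs most closely over the 252 cells, are printed because the cells were chosen by what is transcribed from them. All 5 symbols were in the RefSeq promoter table (assembly GRCm38.p6), from which up to 250 bases before the gene start are shown, on the strand of the gene, with any base inside an annotated exon removed. The windows are chr10:79879417-79879613 (plus strand) for Prtn3, chr11:87793534-87793580 (plus) for Mpo, chr10:79886062-79886246 (plus) for Elane, chr14:56102575-56102824 (minus) for Ctsg and chr19:11640852-11641101 (minus) for Ms4a3. The Prtn3 window lies inside the annotated gene (chromosome 10, 79874476 to 79883174), before the first exon of a shorter transcript. Prtn3 and Elane are neighbours on the plus strand of chromosome 10, with 3072 bases between them. Capitals mark GGAAGT, letters that hold the GGAA core bound by ETS family factors such as PU.1 (Spi1).
Prtn3: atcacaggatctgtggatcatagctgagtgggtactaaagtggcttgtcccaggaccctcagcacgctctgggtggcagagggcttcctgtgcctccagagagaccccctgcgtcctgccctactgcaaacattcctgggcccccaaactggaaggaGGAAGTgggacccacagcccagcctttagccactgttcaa
Mpo: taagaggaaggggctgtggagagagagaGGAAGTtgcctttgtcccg
Elane: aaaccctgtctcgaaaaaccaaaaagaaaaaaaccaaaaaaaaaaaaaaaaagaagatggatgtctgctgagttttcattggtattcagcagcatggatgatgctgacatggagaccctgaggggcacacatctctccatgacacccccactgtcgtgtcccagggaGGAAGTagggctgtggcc
Ctsg: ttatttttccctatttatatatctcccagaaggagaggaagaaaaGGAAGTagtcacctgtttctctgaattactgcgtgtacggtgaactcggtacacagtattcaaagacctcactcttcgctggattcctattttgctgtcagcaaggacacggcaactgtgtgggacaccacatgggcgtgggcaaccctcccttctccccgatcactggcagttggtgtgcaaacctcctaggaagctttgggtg
Ms4a3: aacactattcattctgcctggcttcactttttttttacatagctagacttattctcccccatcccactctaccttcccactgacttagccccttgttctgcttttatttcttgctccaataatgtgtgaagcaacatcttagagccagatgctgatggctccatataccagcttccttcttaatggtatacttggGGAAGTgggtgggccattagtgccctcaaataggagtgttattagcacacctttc
GGAAGT was searched on both strands and chosen with the sequences in view. It was in 5 of 5 windows, once in each and on the gene's strand. Among the 32851 promoters of the table, 19.7% held it in the 250 bases before the start. In the first 197, 185 and 47 of these bases, the ones farthest from the start, 14.3%, 13.4% and 3.09% held it. These are the lengths of the windows shown. The longer AGGAAGT, which contains it, was in 4 of 5 windows, all but Ms4a3. Of all promoters, 7.69% held it in the 250 bases and 1.15% in the first 47 of them. AACGG, the core bound by Myb, was in 0 of 5 windows, and TTNNGNAA, a C/EBP-like pattern, in 1 of 5 (Ms4a3), against 36.8% of all promoters at 250 bases. A match to these letters is a description of the window.

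Cells that met the rule numbered 1 of 5788 passing barcodes in the control, 57 of 6512 in TAA, 18 of 6083 in TAA+C7.5 and 176 of 6178 in TAA+C30. Their shares were 0.0173%, 0.875% (0.664 to 1.13), 0.296% (0.175 to 0.467) and 2.85% (2.45 to 3.29), with exact Clopper-Pearson intervals. The TAA+C30 share was 3.25 times that of TAA (2.40 to 4.47), and TAA+C7.5, the lower dose, lay below TAA. The rule favours deeply read cells: the selected cells had a median of 9862.5 UMIs in TAA+C30 and 13370 in TAA, against 3138 and 4632.5 for all passing barcodes. With every cell thinned to 2000 UMIs, and shallower cells left out, 56 of 4391 TAA+C30 cells and 10 of 5783 TAA cells kept 3 or more UMIs of the 4 genes, a ratio of 7.38 (3.73 to 16.2), and the shares of TAA+C7.5 (0.165%) and TAA (0.173%) had overlapping intervals. The excess in TAA+C30 was therefore not smaller at equal depth.

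**Figure D1:**
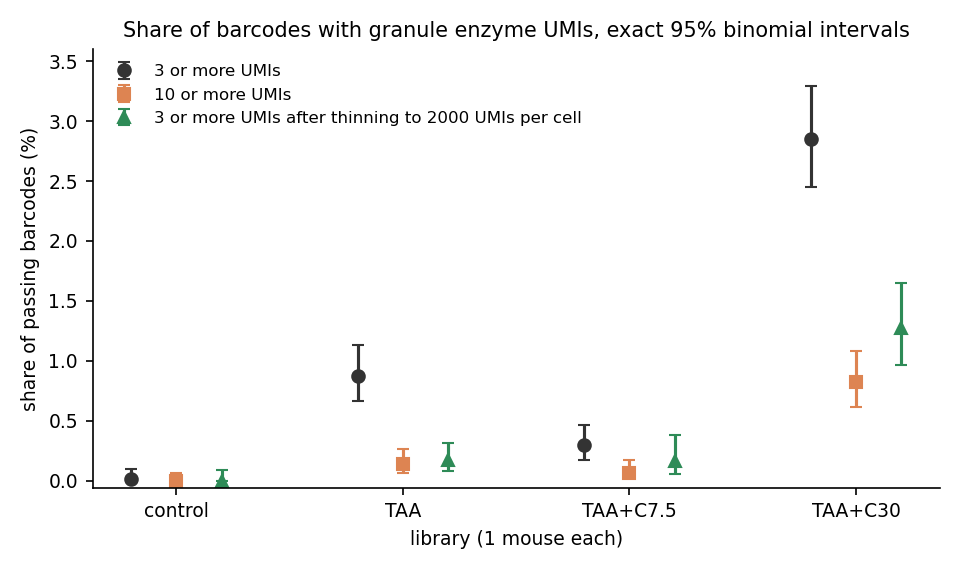
Share of passing barcodes (%) in each library with 3 or more UMIs of Prtn3, Mpo, Elane and Ctsg (circles), with 10 or more (squares), and with 3 or more after thinning each cell to 2000 UMIs (triangles). Bars are exact 95% binomial intervals for counting error in 1 mouse a library, and TAA+C30 lies above the other libraries by all 3 measures (2.85%, 0.826% and 1.28%).

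Free RNA can give UMIs in cells that do not make a transcript, so the same 4 genes were counted in T and B cells, found by their own marker genes. Median UMIs were 5113 in TAA and 3166.5 in TAA+C30 T cells. At least 1 UMI was in 0 of 274 T cells in the control, which allows up to 1.09%, and in 0.222% in TAA, 0.273% in TAA+C7.5 and 2.28% in TAA+C30. The B cell shares were 0, 0.725%, 0.0698% and 2.73%. At 3 or more UMIs, 5 TAA+C30 T cells remained (0.456%), against none in the other libraries. Of these 5 T cells, 4 also had Ly6c2, with up to 32 UMIs where the median T cell had 0, and whether such barcodes held a T cell and a monocyte together was not tested. Among T cells without Ly6c2, at least 1 enzyme UMI was in 9 of 698 in TAA+C30 (1.29%, 0.591 to 2.43) and 1 of 495 in TAA (0.202%, 0.00511 to 1.12). The part of free RNA in the cells with 3 or 4 UMIs was not tested.

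Granule-rich neutrophils and, by less, monocytes also took larger shares of passing barcodes in TAA+C30 than in TAA. Such shares depend on the other cells captured. Endothelial cells, found by marker genes, numbered 2711 in the control, 303 in TAA, 78 in TAA+C7.5 and 27 in TAA+C30. Granule-rich neutrophils (10 or more UMIs of Camp, Ngp and Ltf) were 360 cells or 5.83% in TAA+C30 and 39 cells or 0.599% in TAA, a ratio of 9.73 (6.98 to 13.9). Ly6c2 Ccr2 monocytes (at least 3 UMIs of these genes, at least 1 of Csf1r, Fn1 and F13a1, and fewer than 3 of the enzyme genes) were 1126 of 6178 and 980 of 6512 barcodes, a ratio of shares of 1.21 (1.11 to 1.32). Selected cells fell largely inside that monocyte gate once its limit on the enzyme genes was lifted: 49 of 57 in TAA, 16 of 18 in TAA+C7.5 and 166 of 176 in TAA+C30. Read as a share of the gate, cells with 3 or more enzyme UMIs were 0 of 97 in the control, 4.76% in TAA, 5.10% in TAA+C7.5 and 12.8% (11.1 to 14.8) in TAA+C30. At 2000 UMIs a cell, these were 3 of 1016 gate cells in TAA and 39 of 1258 in TAA+C30, a ratio of 10.5 (3.34 to 53.1). A larger share of the monocyte-gate cells thus passed the enzyme limit in TAA+C30 than in TAA.

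The number of enzyme UMIs per cell spanned 3 to 1070. It was 3 to 9 in 188 cells, 10 to 49 in 36 and 50 or more in 28. In TAA, 48 cells were in the lowest range, 6 in the middle and 3 in the highest, with a median of 4 UMIs and a top cell of 1070. In TAA+C7.5 the numbers were 14, 1 and 3, with a median of 4 and a top cell of 818, and in TAA+C30 they were 125, 29 and 22, with a median of 5.5 and a top cell of 845. The share of selected cells with 10 or more was 15.8% (7.48 to 27.9) in TAA, 22.2% (6.41 to 47.6) in TAA+C7.5 and 29.0% (22.4 to 36.3) in TAA+C30, with overlapping intervals. Of all passing barcodes, cells with 10 or more were 0.138% in TAA (9 cells), 0.0658% in TAA+C7.5 (4 cells) and 0.826% in TAA+C30 (51 cells), a TAA+C30 to TAA ratio of 5.97 (2.91 to 13.8). These ranges cut a continuous count and are not cell types. At the edge of the rule, the barcodes with 2, 3 and 4 enzyme UMIs numbered 40, 19 and 10 in TAA and 112, 44 and 21 in TAA+C30. Prtn3 stood at 150, 192 and 263 CPM (UMIs of the gene per 1000000 UMIs of all genes, summed over the cells) in TAA. In TAA+C30 it was at 244, 310 and 443 CPM. These barcodes were grouped by the count itself, so their CPM follows from the count and the depth. Median UMIs were 11445, 11592 and 12218 in TAA and 7465, 9145.5 and 8398 in TAA+C30. The values do not compare Prtn3 expression between the libraries.

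**Figure D2:**
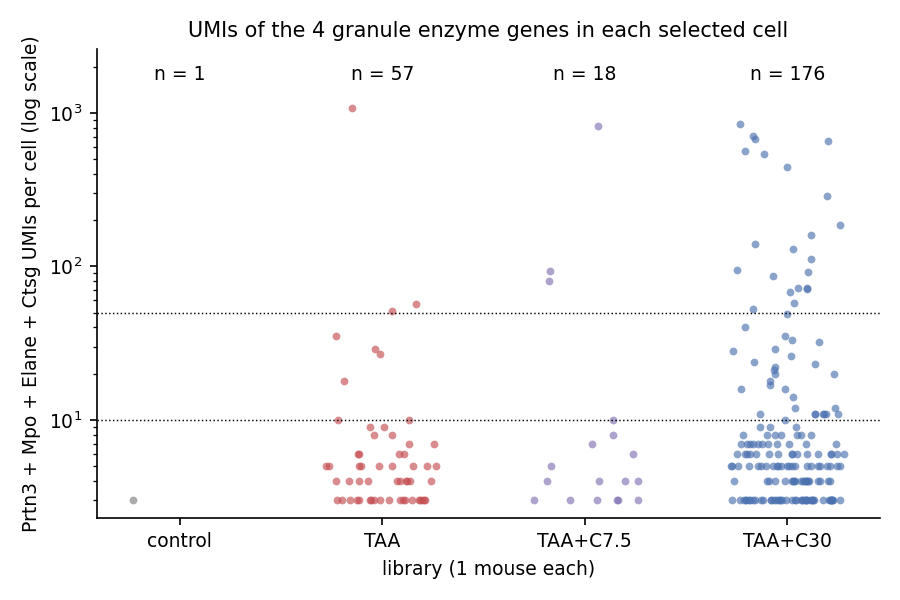
Summed Prtn3, Mpo, Elane and Ctsg UMIs of each of the 252 selected cells (log scale, 1 point a cell) in the 4 libraries, with dotted lines at 10 and 50. Most points lie under 10, and the cells at 50 or more are 3 in TAA, 3 in TAA+C7.5 and 22 in TAA+C30.

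Prtn3 was the enzyme transcript that nearly all of these cells had. It was present in 250 of 252, with a range of 0 to 393 UMIs and a median of 4 in the TAA cells, 1 to 298 and 4 in TAA+C7.5, 0 to 416 and 5 in TAA+C30, and 3 in the single control cell. Elane was present in 68 cells, Ctsg in 55 and Mpo in 49, and the median of each was 0 in every library. In 159 cells Prtn3 was the only enzyme gene. The 4 genes came together as the sum rose: 46 of the 64 cells with 10 or more UMIs had 3 or 4 of the genes, and 24 of the 28 cells at 50 or more had all 4. In TAA+C30, Prtn3 was at 55.5 CPM in the monocytes and at 448, 1121 and 5872 CPM in the selected cells of the lowest, middle and highest range, and Mpo was at 0.134, 0.816, 147 and 1913 CPM in the same order. The cells were cut on these genes, so this order follows from the selection. In granule-rich neutrophils of that library Prtn3 was at 423 CPM and was detected in 5.0% of cells (3.0 to 7.8), but 4 of the 360 cells held 849 of its 869 UMIs and 340 of the 341 Mpo UMIs. In the other 356 cells Prtn3 was at 10.0 CPM.

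**Figure D3:**
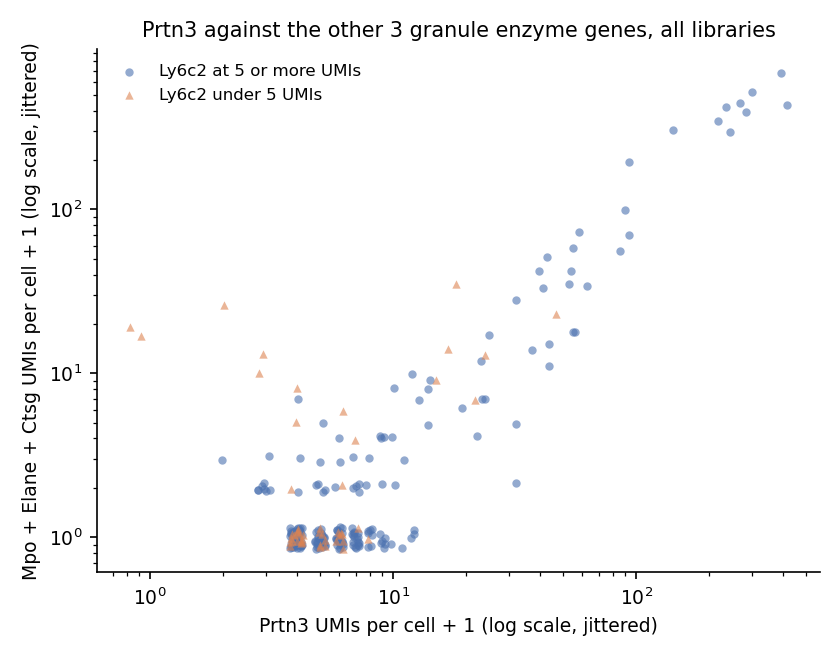
Prtn3 UMIs of each of the 252 cells against the summed UMIs of Mpo, Elane and Ctsg (both plus 1, log scales, points jittered), with cells at 5 or more Ly6c2 UMIs as circles and the others as triangles. The 159 cells with Prtn3 alone lie along the bottom, and 3 triangles at the left have 0 or 1 Prtn3 UMIs.

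Outside the 4 genes, the selected cells carried Ly6c2, the surface antigen gene of inflammatory monocytes, F13a1 (a coagulation factor subunit made by monocytes) and Ccr2 (the chemokine receptor that brings monocytes out of the marrow). Ly6c2 was at 1677 CPM in TAA, 1521 in TAA+C7.5 and 1585 in TAA+C30, and F13a1 at 469, 619 and 624 CPM. At least 1 UMI of Irf8, Csf1r, Ly86 or F13a1, genes of monocyte and dendritic cell progenitors and their offspring, was in 93.0% (83.0 to 98.1) of TAA and 96.0% (92.0 to 98.4) of TAA+C30 cells, against 14.2% (10.7 to 18.2) of TAA+C30 granule-rich neutrophils. Fcnb, Cebpe, Gfi1 or Chil3, of the early neutrophil lineage, were in 73.7% and 77.3%, and in 55.0% of TAA+C30 monocytes. Cd34, Kit or Flt3, receptors and surface proteins of stem and early progenitor cells, were in 33.3% (21.4 to 47.1) and 26.1% (19.8 to 33.3), beside 38.2% and 20.3% of the monocytes of the 2 libraries. Irf8, Csf1r, Ly86 or F13a1 were thus found in more of the selected TAA+C30 cells than of the granule-rich neutrophils. Those neutrophils were read less deeply, with a median of 5208.5 UMIs against 9862.5. Whether the selected cells resembled monocytes more than neutrophils cannot be decided from presence. Camp, Ngp and Ltf define the neutrophils and limited the selection, and Csf1r and F13a1 are in the monocyte gate. The granule-rich share for the early neutrophil genes is not given here. Presence of Cd34, Kit or Flt3, not thinned, did not set the selected cells as a whole apart from monocytes. Other stem cell genes, and presence at fixed depth, are given below for the enzyme-rich cells of TAA+C30. The single control cell had 3 Prtn3, 2 Cd34, 1 Kit and 3 Flt3 UMIs and no Ly6c2.

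In TAA+C30, the library with enough cells for it, levels were compared between the 51 cells with 10 or more enzyme UMIs and the 1126 monocytes, as the log2 ratio of CPM with 10 CPM added to each side. A gene past 2-fold was counted as higher or lower. Of 12181 genes with 10 or more UMIs, 6.79% were higher and 7.29% lower in the enzyme-rich cells, with a median of -0.03. Ms4a3 headed the genes named by rank, at 296 CPM against 0.269 CPM. It was detected in 27 of the 51 cells, in 22 of the 22 with 50 or more enzyme UMIs, and in 2 of 1126 monocytes. Phgdh, the first enzyme of serine synthesis, was at 170 against 2.95 CPM, and Stmn1, a microtubule regulator of dividing cells, at 822 against 53.9 CPM. The enzyme-rich cells were also read more deeply, with a median of 14357 UMIs against 6568, and CPM is relative to the total of the summed cells.

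Cell cycle genes were higher almost without exception in these 51 cells. All 25 S phase genes measured were past 2-fold (median log2 ratio 2.35), as were 27 of 28 G2 and M phase genes (1.99), beside the 6.79% of all genes. Mcm5, a subunit of the replicative helicase, was at 211 against 14.9 CPM, a ratio of 14.1 (11.1 to 18.1). Top2a, which untangles replicated DNA, was at 234 against 26.5 CPM. At a fixed depth of 2000 UMIs a cell, 3 or more UMIs of the S phase list were in 62.7% (48.1 to 75.9) of the enzyme-rich cells and 3.8% (2.8 to 5.2) of the monocytes, and unthinned in 88.2% and 28.2%. The cells with 3 to 9 enzyme UMIs stood between them at 12.9% (7.6 to 20.1), and granule-rich neutrophils were at 3.0%. For the G2 and M list the same order gave 90.2%, 18.9%, 34.7% and 44.4%, so that neutrophils too carried such transcripts. Phase was not called for single cells.

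Genes of ribosome production and growth went the same way. Of 28 genes on the list of MYC targets and ribosome biogenesis, 21 were past 2-fold higher and 0 lower, with a median of 1.40. Npm1, a nucleolar chaperone, was at 1640 against 610 CPM. Srm, which makes the polyamine spermidine, was 8.76 times (6.70 to 11.4) the monocyte level, and Myc itself stood at 50.8 against 16.9 CPM. Endoplasmic reticulum chaperones, which fold secreted and granule proteins, were higher in 3 of 20 (Pdia4, Pdia6 and Sdf2l1) and lower in 0, with a median of 0.59.

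Genes of stem and multipotent progenitor cells were higher in 9 of 19 and lower in 1 (Ly6a). Those higher were Adgrg1, Adgrl4, Cd34, Cdk6, Gata2, Hlf, Muc13, Myb and Sox4. Cd34 was at 114 against 27.7 CPM and was found in 24 of the 51 cells, and Myb, a transcription factor of immature blood cells, at 79.3 against 2.7 CPM. Kit stood at 8.7 against 6.6 CPM and Flt3 at 21.1 against 37.5 CPM, neither past 2-fold. Summed over cells, Cd34, Sox4 and Gata2 peaked in the middle range. Cd34 was at 187 CPM at 10 to 49 enzyme UMIs and 58.8 CPM at 50 or more. Sox4 was at 201 and 50.1 CPM, and Gata2 at 127 and 0 CPM. The peak rested partly on few cells. Of the 65 Cd34 UMIs of the middle range, the cells without Ly6c2 held 12, 12, 7, 5, 2, 0 and 0. Of the 51 cells, 8 had under 5 Ly6c2 UMIs, and all 8 had Cpa3 or Cd34. Presence at fixed depth of Cd34, Kit or Flt3 was 19.6% (9.8 to 33.1) in the 51 cells and 8.6% (7.0 to 10.4) in the monocytes.

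**Figure D4:**
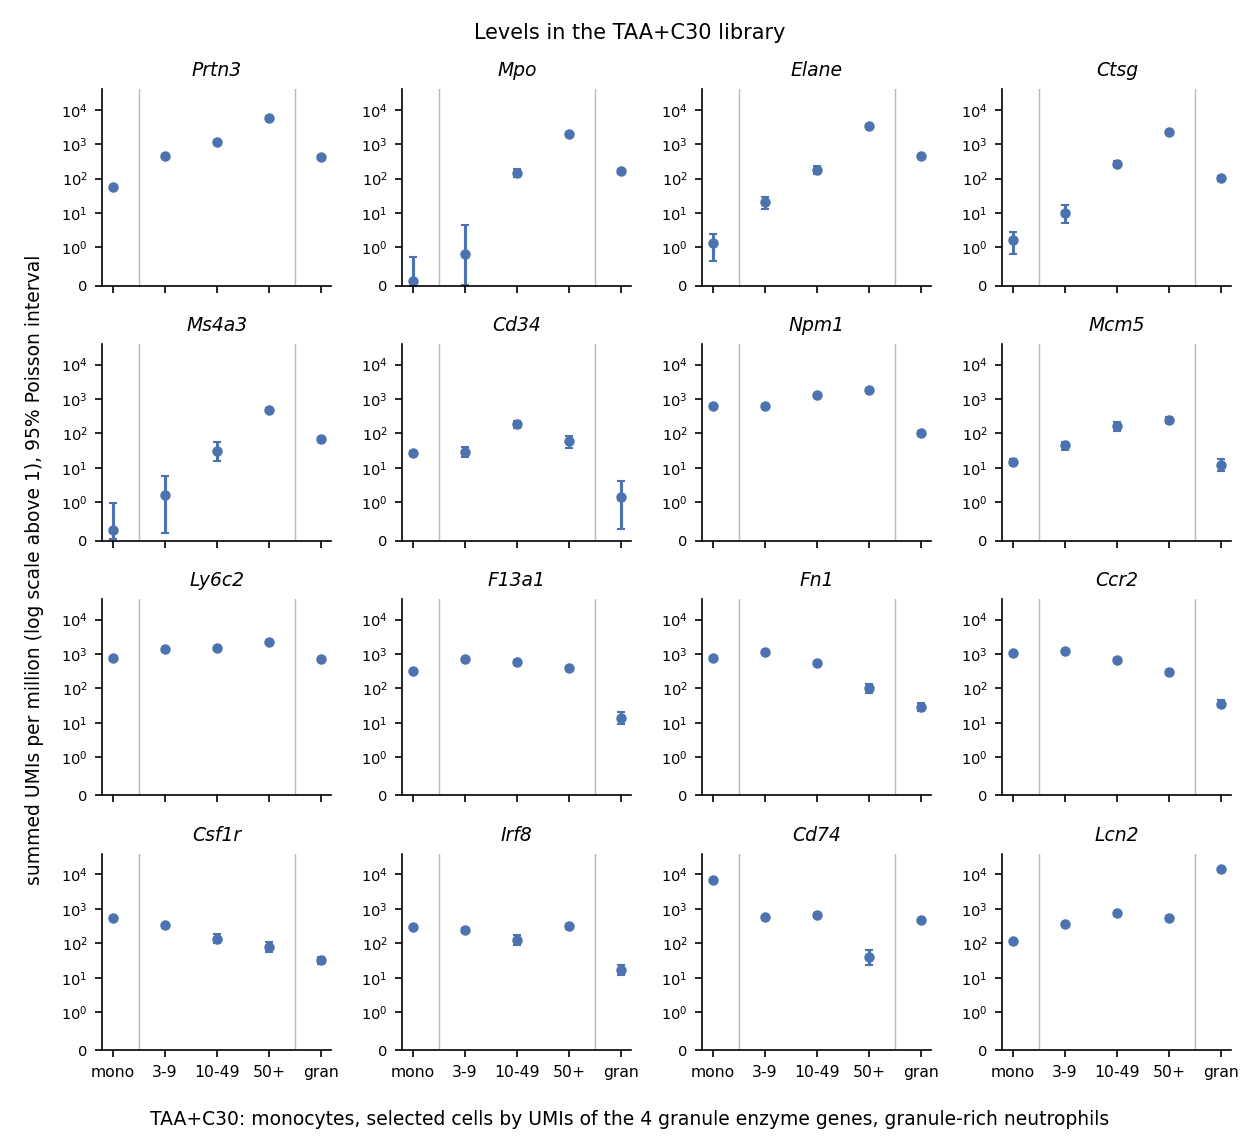
Summed level (CPM, log scale above 1, bars 95% Poisson intervals) of 16 genes in the TAA+C30 library in monocytes (mono), selected cells with 3 to 9, 10 to 49 and 50 or more enzyme UMIs, and granule-rich neutrophils (gran). The 4 enzyme genes rise by construction, Ms4a3 rises with them to 497 CPM, Cd34 is highest in the middle range at 187 CPM, and Csf1r goes from 561 CPM in monocytes to 80.6 CPM at 50 or more.

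On the neutrophil side, 10 of 26 early lineage genes were past 2-fold higher than in monocytes and 3 lower. Fcnb, a ficolin of immature granulocytes, was at 107 against 7.0 CPM, Lcn2, a granule protein gene that binds siderophores, at 621 against 117 CPM, and S100a8, a calcium-binding protein gene, at 4362 against 1201 CPM. S100a8 and Lcn2 were at 166303 and 14632 CPM in granule-rich neutrophils of the library and also appeared in T cells, where S100a8 was at 740 CPM in TAA and 2795 CPM in TAA+C30. Cebpe, the factor for the later granules, was at 22.3 against 1.9 CPM and Gfi1 was not found in the 51 cells. Of 25 late neutrophil genes, 1 was higher and 10 lower, and Csf3r, the G-CSF receptor, was at 28.5 against 79.4 CPM. Beyond the 4 enzymes, genes of primary granules and granule maturation were higher in 10 of 22 and lower in 2. Among them were Serpinb1a, an inhibitor of these proteases (211 against 19.9 CPM), Cst7, a cathepsin inhibitor (88.0 against 5.1 CPM), and Prss57, another granule serine protease (27.3 against 1.2 CPM).

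Monocyte maturation genes were lower in the enzyme-rich cells. Of 29 genes of the monocyte and dendritic cell list, 17 were past 2-fold lower and 1, Ly6c2, higher (1894 against 787 CPM). Csf1r, the M-CSF receptor, was at 105 against 561 CPM. Csf1r and Ly6c2 are among the genes that define the monocyte gate, so their monocyte levels partly follow from it. Irf8 was at 231 against 293 CPM, within 2-fold. MHC class II genes were lower in 7 of 7, with a median of -3.90: Cd74, the invariant chain, was at 304 against 7081 CPM, and 1 of the 51 cells held 78.4% of its UMIs. The complement genes C1qa (1.24 against 636 CPM) and C1qb (6.2 against 905 CPM) and the lipid carrier Apoe (191 against 9346 CPM) were the lowest of the genes named by rank. The monocyte gate therefore held cells with macrophage and antigen-presentation genes, 7 of 9 genes of the macrophage list being lower in the enzyme-rich cells, and their part in these ratios was not tested.

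Inflammatory programmes were lower too. Interferon response genes were past 2-fold lower in 19 of 22 (median -1.81), with Isg15, a secreted ubiquitin-like protein gene, at 18.6 CPM where the monocytes had 184 CPM, and the interferon regulator Irf7 at 19.8 CPM where they had 241 CPM. Inflammatory cytokine genes were lower in 12 of 18 and higher in 0, with Il1b at 420 against 2303 CPM. Genes induced by cell dissociation were lower in 9 of 18. Genes that hold cells in marrow or guide them out of it were lower in 9 of 19, among them Cxcr4, the receptor for the marrow chemokine Cxcl12 (202 against 609 CPM), and Ccr2 (457 against 1101 CPM), which is also a gate gene of the monocytes. Since celecoxib blocks the product of Ptgs2, prostanoid genes were listed as well: of 17, 2 were higher (Lta4h and Ptges3) and 4 lower (Hpgd, Hpgds, Ptger4 and Tbxas1), with a median of -0.31. Ptgs2 was at 102 against 170 CPM and Alox5ap, which feeds arachidonic acid to 5-lipoxygenase, at 651 against 1206 CPM, both within 2-fold after the added 10 CPM.

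**Figure D5:**
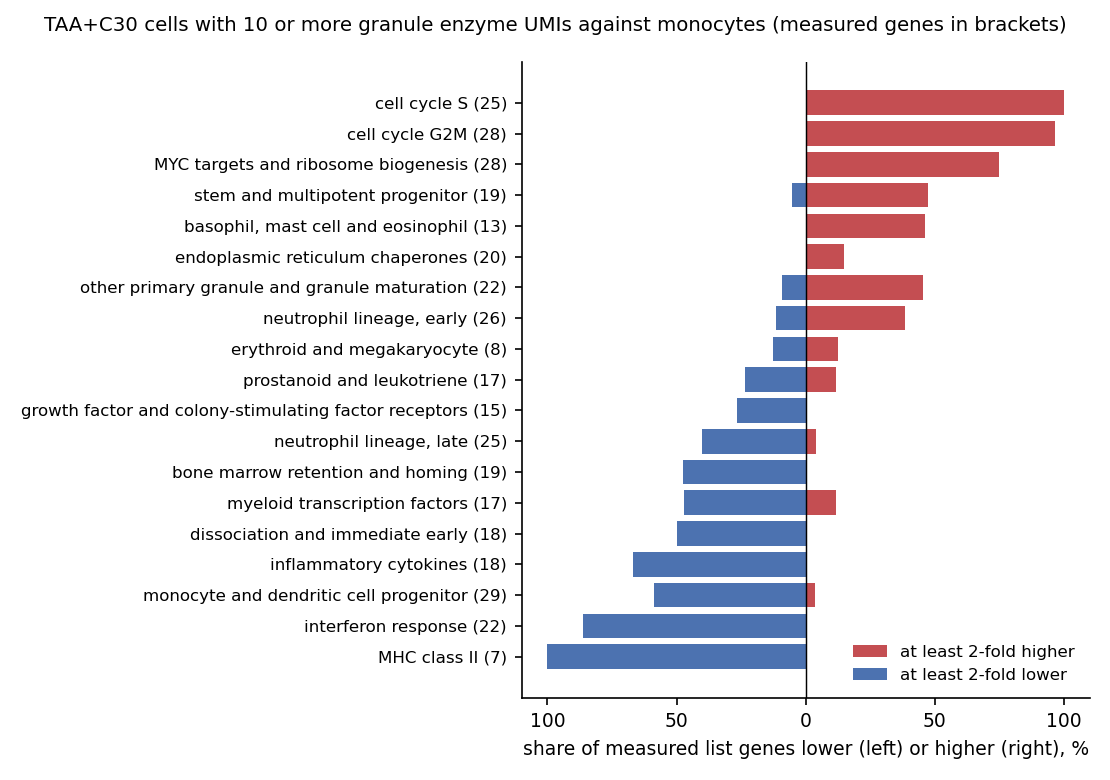
For each gene list, the share of measured genes (number in brackets) at least 2-fold higher (right, red) or lower (left, blue) in the 51 TAA+C30 cells with 10 or more enzyme UMIs than in the 1126 monocytes of that library. S phase (100%) and G2 and M phase genes lie at the top and MHC class II (7 of 7 lower) at the bottom, where 6.79% of all genes were higher and 7.29% lower.

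Within the selected cells of TAA+C30 the same lists separated the 51 enzyme-rich cells from the 125 with 3 to 9 UMIs, a split made after the 2 ranges were seen to differ. Of 9242 genes, 6.6% were higher and 6.88% lower. S phase genes were higher in 24 of 25 (median 1.69), G2 and M phase genes in 5 of 28 (0.69), and ribosome biogenesis genes in 23 of 27 (1.50). Interferon genes were lower in 18 of 21 and macrophage genes in 6 of 6, whereas MHC class II genes were lower in 1 of 6. Ncl, a nucleolar protein gene, was at 673 against 207 CPM, and Fn1, fibronectin, at 299 against 1118 CPM. Fn1, F13a1 and Ccr2 were highest in the 3 to 9 range, at 1118, 727 and 1183 CPM, above the monocytes (746, 328 and 1101 CPM). Cells with few enzyme UMIs thus carried the monocyte genes at full level and only part of the cycling and growth genes.

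The 64 enzyme-rich cells of all libraries were not uniform. Ly6c2 was at 5 or more UMIs in 51 of them (5 in TAA, 3 in TAA+C7.5, 43 in TAA+C30) and under 5 in 13, all of which had Cpa3 or Cd34. In 3 cells (1 in TAA, 2 in TAA+C30) there were 122 to 505 UMIs of Prss34 and 28 to 201 of Mcpt8, proteases of basophils, with 12 to 18 UMIs of Ctsg and 0 to 1 of Prtn3. All Prss34 in the selected cells came from them, and the high Prss34 and Mcpt8 levels of the selected cells (542 and 218 CPM in TAA, 241 and 84.6 CPM in TAA+C30) rest on 1 and 2 cells. Another 6 cells (2 in TAA, 4 in TAA+C30) had Cpa3, mast cell carboxypeptidase, with no Prss34 and at most 1 UMI of Mcpt8, and carried 2 to 12 UMIs of Cd34 and a median of 8.5 of Mpo. At the other end, 4 cells (1 in TAA+C7.5, 3 in TAA+C30) had 2 or more UMIs of Cebpe, with 561 to 818 enzyme UMIs and 22 to 33 of Ms4a3.

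Over the 252 cells, genes whose log level correlated well with the summed enzyme genes included Ms4a3 (Pearson r 0.779), Cst7 (0.628), Igfbp4 (0.578), Nkg7 (0.563), Phgdh (0.548), Dtl (0.515), Rpl14 (0.498), Gpc1 (0.493) and Ppia (0.493), out of 7772 genes with a median r of 0.0096. The lowest were Ctss (-0.601) and Picalm (-0.586). The points are cells of 4 libraries that share a mouse within each library, and the enzyme level itself had an r of 0.0691 with the log of total UMIs, so r is a description.

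Compared with the monocytes of their own library, all 176 TAA+C30 cells showed S phase genes higher in 20 of 25 (median 1.54) and G2 and M phase genes in 26 of 28 (1.66), where 2.28% of 12429 genes were higher and 1.3% lower (2.78% and 1.58% of those with 30 or more UMIs). MHC class II genes were lower in 7 of 7. In TAA, 2 of the 57 cells carried over 1% hepatocyte transcripts (up to 6.15%), held 3505 of the 3510 Fabp1 UMIs of the TAA cells and 10.6% of their UMIs, and had no Ly6c2. With them, 3.67% of 13587 genes were higher in the TAA cells than in monocytes and 2.61% lower (3.92% and 3.19% of those with 30 or more UMIs), and without them 1.29% and 2.36% of 13414. Without them, S phase genes were higher in 2 of 25 (0.22), G2 and M phase genes in 14 of 28 (1.03), early neutrophil genes in 14 of 22 (1.24) and ribosome biogenesis genes in 0 of 28 (0.10), and MHC class II genes were lower in 7 of 7 (-2.70). Named by rank over both libraries without these 2 cells, the highest genes were Prss34, Mcpt8, Ms4a3, Ctla2a, Hist1h2ap, Serpinb1a, Pclaf, Wfdc21, Phgdh and Stmn1, and the lowest were led by H2-Eb1, C1qa, C1qc and C1qb.

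Against granule-rich neutrophils, the TAA+C30 cells were past 2-fold higher in 30.2% of 10268 genes and lower in 4.56%, and the TAA cells in 44.9% and 4.65% of 8318. This split depends on scaling, and S100a8 alone took 166303 CPM of the granule-rich neutrophils of TAA+C30. Among the 7731 genes with 30 or more UMIs, where 39.3% were higher and 5.74% lower, 87.3% of those past 2-fold in TAA+C30 were higher with CPM and 52.2% with TMM scaling, and the median log2 ratio moved from 0.81 to 0.16. In TAA, with 48.8% higher and 5.57% lower of 5008 genes, the split moved from 89.8% to 69.6%. Under both scalings the neutrophil genes Retnlg, S100a9, Mmp9, S100a8 and Ly6g were lower, Retnlg with 19.7 against 18866 CPM in TAA+C30, and S100a4, Fn1, Ms4a6c, Ccr2 and F13a1 were higher. For the 51 enzyme-rich cells (35.5% of 9158 genes higher, 6.99% lower), 25 of 29 early neutrophil genes were lower than in granule-rich neutrophils, with a median of -3.19, and -3.89 with TMM. Lyz2, lysozyme, was at 6261 CPM in the 51 cells against 7681 in these neutrophils. Camp, Ngp and Ltf define the granule-rich neutrophils and limited the selection. The count of lower early neutrophil genes therefore follows in part from the selection.

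Between libraries, the selected cells of TAA+C30 and TAA were compared without the 2 hepatocyte-rich cells, a choice made after their levels were seen. Of 9982 genes, 0.962% were higher in TAA+C30 and 0.831% lower. With the 2 cells the shares were 0.593% and 3.1% of 10281 genes, or 0.725% and 2.72% of the 7727 with 30 or more UMIs. Without the 2 cells, S phase genes were higher in 15 of 25 (median 1.09), against 1 of 28 G2 and M phase genes and 3 of 27 ribosome biogenesis genes. The 2 cells held 195 and 76 UMIs of the S phase list and 592 and 487 of the G2 and M list. With them, Mcm5 was at 38.6 CPM in TAA, and the list counts with them are not given here. The values that follow leave them out. The genes with the largest ratios were Lcn2 (466 against 130 CPM), Erh (197 against 62.4 CPM), Cks1b (134 against 42.0 CPM), Mcm5 (111 against 34.8 CPM) and Hspa1b (441 against 167 CPM). MHC class II genes were lower in 6 of 7 (-1.97), with Cd74 at 477 against 2313 CPM, and so was C1qa (28.5 against 205 CPM). Of 16 prostanoid genes measured, 0 were past 2-fold either way, with Ptgs2 at a log2 ratio of -0.15 and Alox5ap at -0.05. The same genes moved in other cells of these libraries. Lcn2 was at 32.3 CPM in TAA T cells and 202 CPM in TAA+C30 T cells, Hspa1b at 208 and 783 CPM, and in the monocytes Cd74 was at 15075 CPM in TAA and 7081 CPM in TAA+C30.

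The selected cells with 3 to 9 enzyme UMIs were also compared on their own, again without the 2 hepatocyte-rich cells. Here 0.703% of 8959 genes were higher in TAA+C30 and 0.692% lower. Among them, 0 of 22 S phase genes were past 2-fold (median 0.31) and 5 of 28 G2 and M phase genes were (0.62). MHC class II genes were lower in 6 of 7 there too (-2.08), and S100a8 was at 2541 against 363 CPM. The higher S phase level of the TAA+C30 cells was thus not seen at 2-fold in the lower enzyme range alone, whereas the MHC class II difference was. The part of the makeup of the selected cells in these differences was not tested. With 9 enzyme-rich cells in TAA, 1 of them holding 1070 enzyme UMIs, the higher range was not compared between these libraries, and Mki67, a proliferation marker, was in 3 of 9 TAA and 35 of 51 TAA+C30 cells of that range. In TAA+C7.5, with 18 cells, values stand side by side only: its 4 enzyme-rich cells had Prtn3 at 8453 CPM, Mpo at 3595, Ms4a3 at 621 and Cd34 at 150, and its 14 other cells had Prtn3 at 471, Mpo at 46.1, Ms4a3 at 0 and Fn1 at 1845 CPM.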

How the data were processed

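Hepatic nonparenchymal cells of 4 mice, 1 a group, were analysed from the authors' deposited matrices of raw UMI counts per gene and barcode. Reads were processed with Cell Ranger 3.1.0 against mm10, per the submitters' processing notes. The matrices held 55450 genes, and 108 symbols were listed more than once. Free RNA was not removed. The selection limits were applied to raw counts. The cells, their limits and the 26 gene lists were chosen with earlier results of these data known.

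Counts were summed over cells and divided by their total to give CPM. Comparisons were made where both sides had 20 or more cells, on genes with at least 10 UMIs, as log2 ratios with 10 CPM added, and past 2-fold was counted as a difference. Intervals are 95% exact binomial (Clopper-Pearson), exact Poisson, or conditional binomial for ratios, and cover counting error only. With 1 mouse a group there was no test. Named genes were the 10 highest and 10 lowest median ratios over libraries (5 each way between libraries) with 30 UMIs and 50 CPM (100 CPM between libraries), outside the 14 selection genes, comparator genes and technical gene classes, plus list genes by level or ratio. Doublets were marked with Scrublet (Scanpy 1.11.5): 3 of the 252 cells were marked and all were kept, while 0.799% to 2.83% of barcodes per library were marked. The steps ran in Python 3.11.15 with NumPy 2.4.6, SciPy 1.17.1 and pandas 2.3.3. TMM factors came from edgeR 4.0.16 in R 4.3.3, and edgeR was used for nothing else. Some genes that the naming rule or the likeness ranking gave are not reported here.

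On simulated counts for the 176 selected cells and the monocytes of TAA+C30, 88% of genes raised 4-fold and 52.6% of genes lowered 4-fold passed 2-fold, and 0% of unchanged genes did. Alternatives were other UMI minimums, gene and mitochondrial limits, thinning, added CPM, scaling and gene filters, and, chosen after seeing the data, the monocyte gate as denominator, no endothelial limit, the 3 to 9 range alone and leaving out hepatocyte-rich cells. Gene coordinates are from GENCODE M21 and promoter sequences from RefSeq (GRCm38.p6).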

Additional observations from a re-analysis of the deposited data

Results flagged for a closer look

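Besides the selected cells, 26 barcodes had 3 or more UMIs of Prtn3, Mpo, Elane and Ctsg but failed another limit: 4 in TAA, 5 in TAA+C7.5 and 17 in TAA+C30, with 0 in the control. They stand out because they were seen in every library but the control. Of these, 9 (2 in TAA, 2 in TAA+C7.5, 5 in TAA+C30) failed the endothelial limit, with 4 to 1857 enzyme UMIs and a median of 58. In those 9 cells Egfl7 had 27 UMIs, Kdr 1, and Ptprb and Cdh5 0, and Cd34 was present in 9 of 9, so that the limit acted through Egfl7. Another 8 failed the limit on Camp, Ngp and Ltf, with a median of 182 enzyme UMIs, and are among the granule-rich neutrophils above. The last 9 failed the lymphocyte limit, with 3 to 17, and 8 of them were counted among the T and B cells above.

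The hepatocyte gene list was higher in the selected cells than in monocytes in TAA, with a median log2 ratio of 3.12, and lower in TAA+C30, at -0.59. This opposite direction in the libraries was not tested, and the TAA value rests on 2 cells.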

How the results depend on the processing

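No paired analysis was possible because each group had 1 library. The control share of 0.0173% was 0.0346% with at least 2 enzyme UMIs and 0.0390% of barcodes with a Ptprc UMI, and 0 with at least 5 or 10 UMIs, after thinning and in the monocyte gate. With at least 2, 5 and 10 enzyme UMIs the shares were 1.49%, 0.430% and 0.138% in TAA, 0.510%, 0.132% and 0.0658% in TAA+C7.5, and 4.66%, 1.80% and 0.826% in TAA+C30. Thinned to 1000 and 2000 UMIs they were 0.112% and 0.173% (TAA), 0.0926% and 0.165% (TAA+C7.5), and 0.543% and 1.28% (TAA+C30). As shares of the monocyte gate, unthinned, they were 4.76%, 5.10% and 12.8%, and thinned to 2000 UMIs 0.295% in TAA and 1.34% in TAA+C7.5. TAA+C30 was highest under each of these settings, and limits on genes, mitochondria, Ptprc, granule genes, endothelial genes and doublets moved no share beyond its interval.

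Counts of genes past 2-fold (higher and lower) depended on the added CPM. Against neutrophils they were 2446 and 279 in TAA, 1033 and 175 with 50 CPM added, 1465 and 640 with TMM scaling, and 3731 and 459 with no minimum of UMIs; in TAA+C30 they were 3039 and 444, 863 and 203 with 50 CPM, and 1214 and 1110 with TMM. Against monocytes they were 435 and 354 in TAA, 861 and 1137 with 1 CPM and 136 and 105 with 50 CPM, and 167 and 316 without the hepatocyte-rich cells. In TAA+C30 they were 283 and 161, 581 and 632 with 1 CPM, 66 and 43 with 50 CPM, and 776 and 888 for the enzyme-rich cells alone. Between TAA+C30 and TAA they were 56 and 210, 217 and 348 with 1 CPM, 9 and 87 with 50 CPM, and 88 and 63 without the hepatocyte-rich cells. With 3 to 9 enzyme UMIs they were 35 and 232, and without the hepatocyte-rich cells as well 38 and 39. Hamp changed direction without those cells: its log2 ratio was -0.28 against monocytes in TAA, and 0.035 between libraries (0.013 at 3 to 9 UMIs).

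Presence of a lineage gene fell with thinning to 1000 UMIs, by construction: Cd34, Kit or Flt3 to 3.51% in TAA and 6.82% in TAA+C30, Fcnb, Cebpe, Gfi1 or Chil3 to 36.8% and 45.5%, and Irf8, Csf1r, Ly86 or F13a1 to 75.4% and 73.3%. The comparison of enzyme-rich cells was not run in TAA (9 cells) or between libraries. Depth limits the small groups: 1 UMI is worth 5.64 CPM in the 9 enzyme-rich TAA cells and 21.4 CPM in the 4 of TAA+C7.5.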
